A study of Rattus norvegicus with 6 samples.

Results

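Cell cycle genes were measured in the renal cortex of rats given 1,2-dibromoethane. The set holds 36 genes chosen by name and grouped here by role, with 3 placed in a G1 group, 11 in DNA replication and 22 in mitosis. Every probe other than a control probe was assigned to a member when its transcript accession mapped to that gene. This matched 32 of the 36 members, through 69 of the 61453 probes analysed, on an array whose probes named 15645 gene symbols. No probe was matched to Mcm5, Top2a, Bub1b or Melk, so these 4 have no level below and enter the promoter counts alone. Where several probes matched a gene, its brightest probe on average stands for it. Testing required a signal well above background in every animal of the control group, of the treated group or of both. This held for 29 of the 32 matched members, and each of the 29 was above background on all 6 arrays, so no member entered the test through 1 group alone. The other 3 were dim. The probe of Cdc6, which loads the replicative helicase at origins, was above background in 1 control and 2 treated animals. Aurkb, a kinase of the chromosomal passenger complex, and Hmmr, a spindle protein, were above background in 1 treated animal each.

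The control group was 3 male Sprague-Dawley (Crl:CD(SD)) rats given corn oil for 4 weeks. The treated group was 3 rats of the same sex and strain given 1,2-dibromoethane at 75 mg/kg/day for 4 weeks. All were bought at 5 weeks of age and kept on the same basal diet. This is an outbred stock, and total RNA of the renal cortex of each animal was hybridised to 1 Agilent 1-colour array, with the submitters naming the 3 animals of a group as biological replicates. The halogenated alkane 1,2-dibromoethane was used as a fumigant and fuel additive and is known as a DNA-reactive compound after conjugation with glutathione.

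A level below is the log2 processed signal relative to the 75th percentile of its array, so a negative level lies under that percentile and levels of different probes cannot be ranked against each other. A difference is the treated mean minus the control mean on this scale, with its moderated standard error (SE) from limma. An adjusted p is a Benjamini-Hochberg value over all 28961 features tested, with a threshold of 0.05, and n is 3 animals per group throughout.

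The arrays correlated with each other at r between 0.988 and 0.993 over the tested features, and between 59.2% and 67.8% of probes were well above background. Of the proximal tubule markers, which define the labelled tissue, 10 of 10 were above background on every array. Of the 3 slides, the first carried dibromoethane replicate 2 with 2 of the controls (replicates 1 and 2), the second paired control replicate 3 with dibromoethane replicate 1, and the third had dibromoethane replicate 3 alone. Slides 1 and 3 share one scan day and slide 2 has another, so values within slides 1 and 2 are given where a result turns on them.

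Cells enter the cycle when D-type cyclins and then cyclin E activate their kinases, which inactivates the retinoblastoma protein and frees E2F factors to switch on the replication genes. Genes of mitosis are switched on later, through promoters that carry a cell cycle genes homology region (CHR) and CCAAT boxes. Tubule cells of the adult kidney divide rarely and re-enter the cycle after injury, so transcripts of mitosis are in common use as a readout of proliferation in this tissue.

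The promoters of the groups differ in these elements, and 4 are printed because their genes carry the results below: Rgcc has the largest difference, Mcm6 the largest among the replication genes, and Mki67 and Cdk1 stand for mitosis. Each sequence is the 250 bases before the annotated start, from the RefSeq promoter table of build GRCr8, read 5′ to 3′ on the gene's strand with motif matches in capitals. The motifs searched on both strands were the CHR (TTTGAA or TTCGAA), the CCAAT box (CCAAT) and the E2F site (TTTCCCGC, TTTCGCGC, TTTGCCGC or TTTGGCGC), and matches may overlap each other.
Rgcc, chr15:61084409-61084658, minus strand: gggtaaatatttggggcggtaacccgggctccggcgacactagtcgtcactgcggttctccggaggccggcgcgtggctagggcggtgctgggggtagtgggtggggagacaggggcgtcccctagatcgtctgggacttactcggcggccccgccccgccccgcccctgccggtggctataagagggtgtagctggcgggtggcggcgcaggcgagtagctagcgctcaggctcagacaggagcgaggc
Mcm6, chr13:42404353-42404602, minus strand: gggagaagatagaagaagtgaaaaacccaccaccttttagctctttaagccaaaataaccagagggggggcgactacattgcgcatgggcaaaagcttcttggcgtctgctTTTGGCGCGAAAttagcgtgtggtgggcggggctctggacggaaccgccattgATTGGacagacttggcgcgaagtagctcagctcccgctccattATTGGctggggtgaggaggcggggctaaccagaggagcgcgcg
Mki67, chr1:199952594-199952843, minus strand: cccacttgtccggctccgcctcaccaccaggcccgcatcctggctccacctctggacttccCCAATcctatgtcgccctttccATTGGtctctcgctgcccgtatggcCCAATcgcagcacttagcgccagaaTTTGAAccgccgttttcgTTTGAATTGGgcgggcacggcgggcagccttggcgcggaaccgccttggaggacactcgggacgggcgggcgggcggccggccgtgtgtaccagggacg
Cdk1, chr20:19265043-19265292, plus strand: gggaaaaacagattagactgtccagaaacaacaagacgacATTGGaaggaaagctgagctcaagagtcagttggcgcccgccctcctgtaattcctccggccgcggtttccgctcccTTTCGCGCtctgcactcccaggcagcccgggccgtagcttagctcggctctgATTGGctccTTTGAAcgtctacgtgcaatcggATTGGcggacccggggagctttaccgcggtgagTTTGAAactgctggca
The Rgcc window holds none of the letters searched. In the Mcm6 window 2 overlapping E2F matches, one on each strand, begin 139 and 135 bases before the start, and 2 CCAAT boxes lie nearer to it. The Mki67 window has 2 CHR matches, the nearer beginning 99 bases before the start and sharing a base with a CCAAT box at 94 bases. In the Cdk1 window a CHR match begins 16 bases before the start and a second at 72 bases, with CCAAT boxes at 49 and 81 bases and an E2F match at 133 bases.

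The promoter table held 28 of the 36 members. Among 18 mitotic promoters, 9 (50%) held a CHR match and 14 (77.78%) a CCAAT box, against 17.37% and 34.02% of all 33469 promoters in the table. An E2F match was found in 1 mitotic promoter, that of Cdk1, and in 5 of 8 replication promoters (62.5%), against 1.73% of all promoters. The E2F matches of the replication genes lay before Mcm2, Mcm5, Mcm6, Mcm7 and Tyms. The 2 G1 promoters in the table, of Ccne1 and Rgcc, held none of the 3 motifs. These are counts of letters and describe the groups by a feature that the choice of members did not use.

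**Figure D1:**
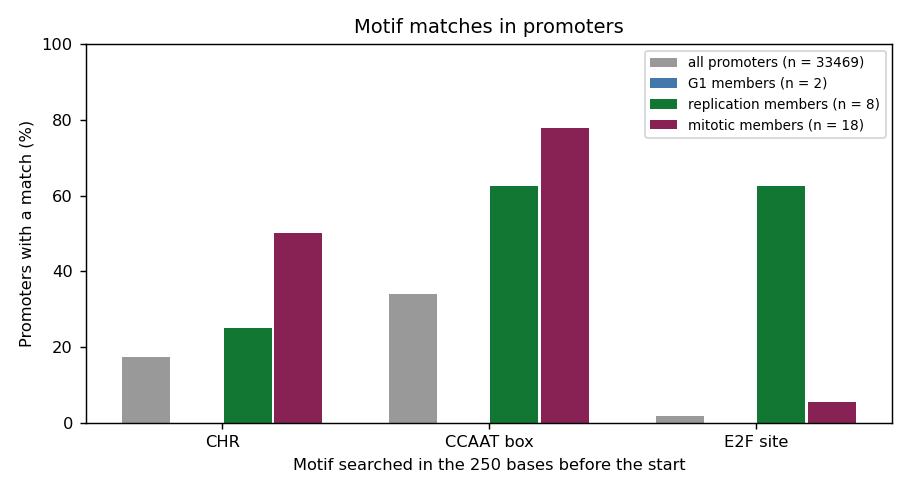
Share of promoters (percent) with at least 1 match of each motif in the 250 bases before the start, for all promoters of the RefSeq table and for the G1, replication and mitotic members. The CHR bar is highest for the mitotic members (50%) and the E2F bar for the replication members (62.5%), and the G1 members have no match.

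In the renal cortex, Ccnd1 and Ccne1 of the G1 group read higher, and Rgcc lower, in every treated animal than in any control. The place of Rgcc in the G1 group is a choice of grouping made here and was not tested. The 26 tested genes of replication and mitosis differed by at most 0.26 on the log2 scale, and no member passed the adjusted threshold. The limma fit called 0 of 29 members at an adjusted p under 0.05, against 9 of 28961 features (0.0311%). At an unadjusted p under 0.05, 3 of 29 members were higher (10.3%, Ccnd1, Ccne1 and Mcm6) against 4.53% of all features, and 1 of 29 was lower (3.45%, Rgcc) against 6.62%. The groups did not overlap, with treated animals higher, for 4 of 29 members (13.8%, against 7.38% of all features) and, with treated animals lower, for 3 of 29 (10.3%, against 12.1%). The members' shares rest on 1 to 4 genes each, and their difference from the shares of all features was not tested. In RNA of whole tissue, fewer cells of a type and less RNA per cell cannot be told apart.

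**Figure D2:**
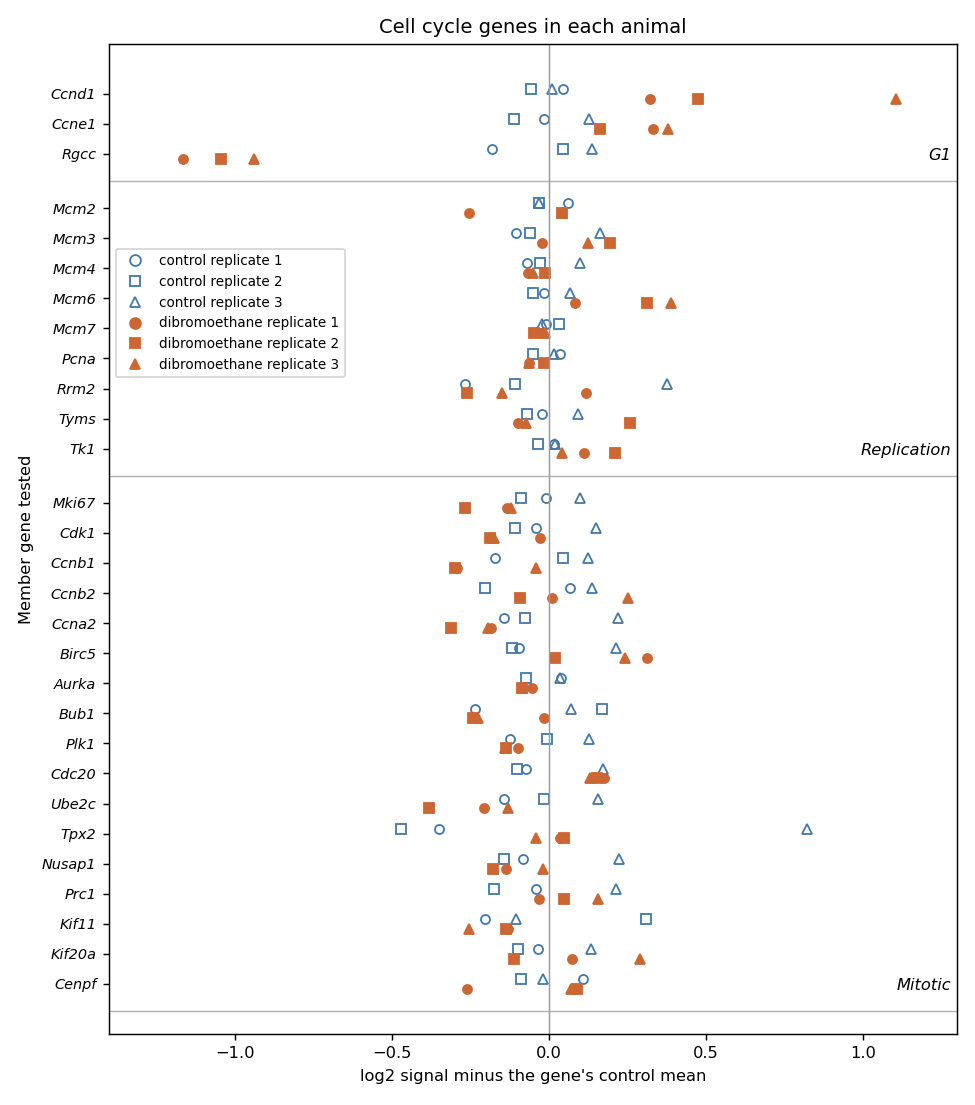
Level of each of the 29 tested members in each animal, as log2 signal minus the gene's control mean (horizontal axis), with genes grouped by role (vertical axis); open symbols are controls, filled symbols dibromoethane, and shapes are replicate numbers. Treated values of Rgcc and Ccnd1 lie clear of the controls on opposite sides, and most mitotic genes have control replicate 3 at the upper end.

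Rgcc, whose protein was first described as a product of a gene responding to complement and binds CDK1, read 3.25, 3.47 and 3.57 in the 3 controls and 2.26, 2.39 and 2.49 in the 3 treated animals. The lowest control stood well above the highest treated animal, and both groups were tight. The difference was -1.05 (SE 0.11, 95% interval -1.32 to -0.77), a level 2.07-fold lower after treatment, with a limma adjusted p of 0.111. It was -0.98 within slide 1 and -1.30 within slide 2, and between -1.14 and -0.98 when each animal was left out in turn. With limma's trend and robust options the adjusted p was 0.0356, the one alternative under which a member passed.

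The other 2 probes of Rgcc, both above background on all arrays, read in the same direction with less separation. The probe A_64_P102942 gave 0.69, 0.78 and 1.05 in the controls and -0.22, -0.46 and 0.14 in treated animals, again without overlap and with a difference of -1.02. The probe A_64_P150904 gave -0.51, -0.61 and 0.65 against -0.64, -1.89 and -0.20, where the groups overlapped and the difference was -0.75. The direction was the same at the 3 probes of Rgcc, and the probe A_64_P150904 had the widest spread between animals of a group.

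Ccnd1, cyclin D1, which pairs with CDK4 and CDK6 to open G1, read 2.90, 2.79 and 2.86 in the controls and 3.17, 3.33 and 3.95 after dibromoethane. The controls lay within a narrow band, and the treated animals spread widely above it, with replicate 3 far above the other 2. The difference was 0.63 (SE 0.21, 95% interval 0.13 to 1.14), a 1.55-fold higher level, with a limma adjusted p of 0.378. Its size rests in part on dibromoethane replicate 3, the single array of slide 3: without it the difference was 0.40, within slide 1 it was 0.48, within slide 2 0.31, and in a fit that blocks on slide 0.41. The other 2 Ccnd1 probes gave differences of 0.58 and 0.52, and at both of them every treated animal stood above every control with replicate 3 highest.

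Ccne1, cyclin E1, which activates CDK2 at the entry to S phase, read -3.60, -3.70 and -3.46 in the controls and -3.25, -3.42 and -3.21 in treated animals. The groups came close to each other without overlapping. The difference was 0.29 (SE 0.10, 95% interval 0.05 to 0.53, limma adjusted p of 0.394), with 0.23 and 0.20 within slides 1 and 2. It was 0.15 after normexp background correction and 0.60 with both Ccne1 probes averaged, of which the second was not above background on any array.

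**Figure D3:**
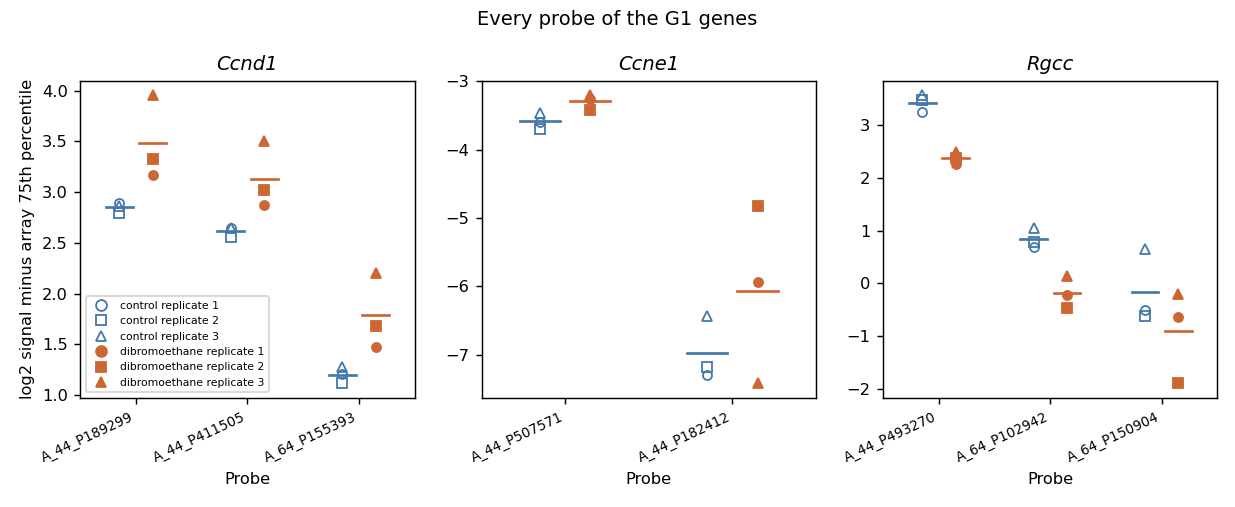
Log2 signal minus the array 75th percentile (vertical axis) for every probe of Ccnd1, Ccne1 and Rgcc in each animal; open symbols are controls, filled symbols dibromoethane, shapes are replicate numbers and short lines are group means of 3 animals. The 3 Ccnd1 probes place dibromoethane replicate 3 highest, 2 of the 3 Rgcc probes separate the groups, and the dimmer Ccne1 probe was below background on all 6 arrays.

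The replication genes lay near their control levels. Over the 9 tested members the differences ran from -0.10 (Rrm2) to 0.26 (Mcm6), and 9 of 9 had a 95% interval inside 1.5-fold either way. The median difference over the 10 matched members was 0.0003, with 5 above and 5 below 0, beside -0.03 over all named genes with a probe. Of their 17 probes above background on all arrays, 9 gave a positive and 8 a negative difference.

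The subunits of the MCM helicase, which unwinds DNA at the fork, did not differ in one direction. Mcm6 read -3.48, -3.51 and -3.40 in the controls and -3.38, -3.15 and -3.07 in treated animals, so the groups met almost at control replicate 3 and dibromoethane replicate 1. Its difference was 0.26 (SE 0.10, 95% interval 0.02 to 0.51, limma adjusted p of 0.427). Within slide 1 it was 0.34, and within slide 2, which holds those 2 animals, 0.02. It was 0.09 after normexp, and the gene has 1 probe.

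Mcm2 read -0.72, -0.82 and -0.82 in the controls against -1.04, -0.74 and -0.74, with dibromoethane replicate 1 the lowest and a difference of -0.06 (SE 0.10). Mcm3 read -0.62, -0.58 and -0.36 against -0.54, -0.32 and -0.39, a difference of 0.10 (SE 0.10). Mcm4 read -0.66, -0.62 and -0.49 against -0.65, -0.60 and -0.64, a difference of -0.04 (SE 0.07). In all 3 the groups overlapped. Mcm7 read 1.52, 1.56 and 1.51 against 1.5, 1.48 and 1.51, and its 95% interval, -0.18 to 0.13, was the narrowest of the 29 members.

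Pcna, the sliding clamp of DNA polymerase and a marker of S phase, was as even as Mcm7. It read 1.79, 1.70 and 1.77 in the controls and 1.69, 1.74 and 1.69 in treated animals, with a difference of -0.05 (SE 0.07, 95% interval -0.21 to 0.11). The largest rise or fall that this interval allows is well inside 1.5-fold.

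The enzymes that supply nucleotides were Rrm2, Tyms and Tk1. Rrm2, the regulated subunit of ribonucleotide reductase, read 1.1, 1.26 and 1.74 in the controls and 1.48, 1.1 and 1.22 after treatment. The 2 highest values were those of control replicate 3 and dibromoethane replicate 1, which share slide 2. The difference was -0.10 (SE 0.19), or 0.09 without control replicate 3. A second Rrm2 probe above background on all 6 arrays, with a control mean of -4.00, gave -0.15. Tyms, thymidylate synthase, read -0.48, -0.52 and -0.36 against -0.55, -0.19 and -0.53, with dibromoethane replicate 2 alone at the top and a difference of 0.03 (SE 0.12). Tk1, the thymidine kinase of the salvage pathway, read 0.55, 0.50 and 0.56 against 0.65, 0.75 and 0.58. Its groups did not overlap, and its difference of 0.12 (SE 0.07, 95% interval -0.06 to 0.30, limma adjusted p of 0.573) has an interval that includes 0. At a second Tk1 probe above background on all 6 arrays the groups overlapped, with a difference of 0.05.

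**Figure D4:**
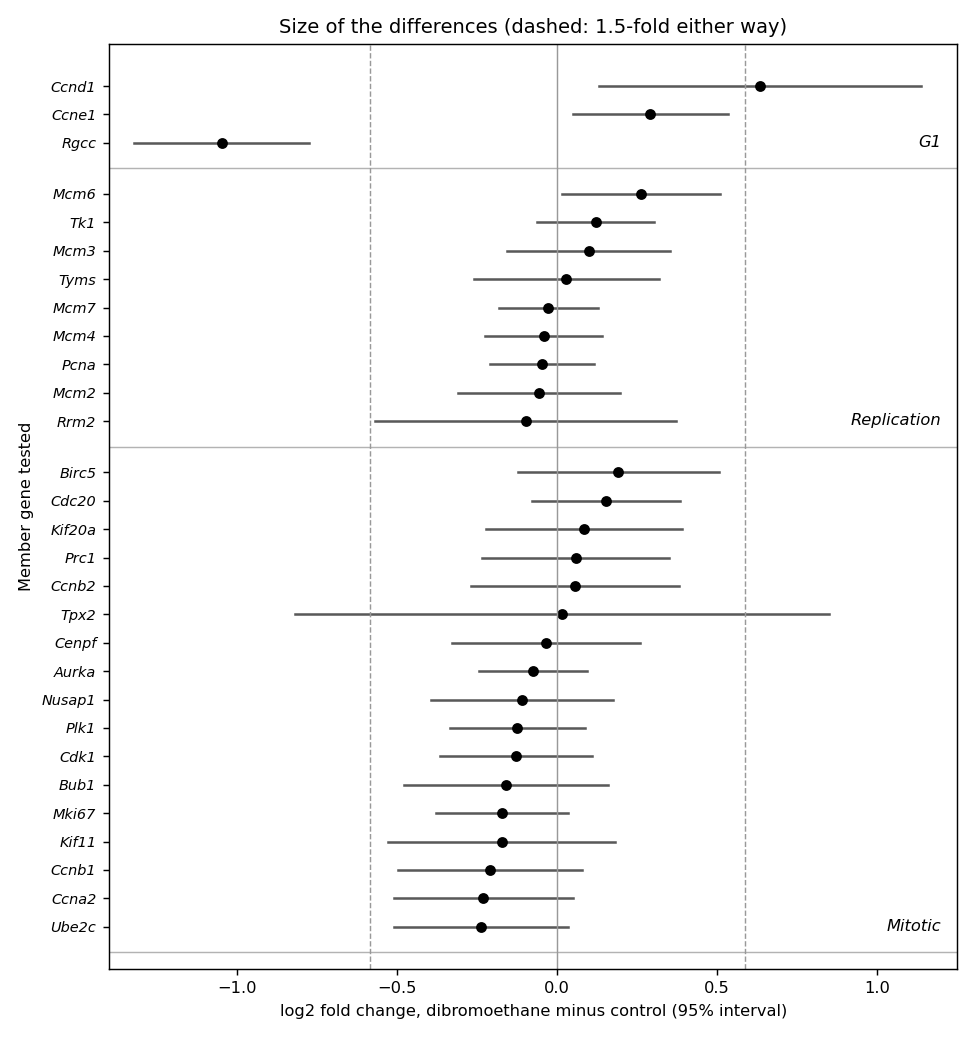
Log2 fold change, dibromoethane minus control, of each of the 29 tested members (points) with its 95% interval from limma (lines), grouped by role and sorted by size within it; dashed lines mark 1.5-fold either way. All 9 replication intervals and 16 of 17 mitotic intervals lie between the dashed lines, and the intervals of Ccnd1, Ccne1, Mcm6 and Rgcc do not reach 0.

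Most mitotic genes read slightly lower in treated animals, by about as much as single animals stood from their group mean. The median difference over the 19 matched members was -0.12, with 13 of 19 below 0, beside -0.03 over all named genes. The SD between animals of a group was 0.14 for the list's median level, which mixes genes of different levels and is not the spread of the median difference. Over the 17 tested members, the median deviations from the group mean were -0.08, -0.09 and 0.14 in the controls. In treated animals they were 0.02, -0.07 and 0.05. No mitotic member reached an unadjusted p under 0.05 in the limma fit, the differences ran from -0.24 to 0.19, and 16 of 17 intervals lay inside 1.5-fold either way. Of 27 mitotic probes above background on all arrays, 19 gave a negative difference. On slide 1 alone the mitotic median was -0.07 and on slide 2 alone -0.18, and it was -0.06 without control replicate 3. With slide as a fixed block, every matched mitotic member was below 0 except Birc5 (0.11) and Cdc20 (0.14). The lowest tested one was then Ube2c (-0.33), and no member was called in that fit.

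Mki67, which encodes the Ki-67 antigen of cycling cells, read 0.09, 0.02 and 0.20 in the controls and -0.03, -0.16 and -0.02 in treated animals. Every treated value lay below every control, and the gap between control replicate 2 and dibromoethane replicate 3 was small. The difference was -0.17 (SE 0.08, 95% interval -0.38 to 0.03, limma adjusted p of 0.495), with -0.22 and -0.23 within slides 1 and 2. All 5 Mki67 probes were above background on all 6 arrays, and their differences were all negative, between -0.23 and -0.04. The groups overlapped at every Mki67 probe other than this brightest one.

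The cyclins of G2 and mitosis and their kinase did not share one pattern. Ccna2, cyclin A2, read -1.32, -1.26 and -0.96 in the controls and -1.36, -1.49 and -1.38 in treated animals, again without overlap. Its difference was -0.23 (SE 0.11, limma adjusted p of 0.5). The 2 further probes above background gave -0.08 and -0.04, with overlapping groups at both. Control replicate 3 lay well above the other controls.

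Ccnb1, cyclin B1, read -2.42, -2.20 and -2.12 against -2.54, -2.55 and -2.29, a difference of -0.21 (SE 0.12). Its partner Cdk1, the kinase that drives entry into mitosis, read 0.90, 0.83 and 1.09 against 0.91, 0.75 and 0.76, a difference of -0.13 (SE 0.10). Ccnb2, cyclin B2, read -2.65, -2.92 and -2.58 against -2.70, -2.81 and -2.46, a difference of 0.06 (SE 0.13). For these 3 the groups overlapped, and Ccnb2 changed sign with slide as a block.

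The kinases of the spindle and its checkpoint had overlapping groups. Aurka, which matures centrosomes, read -0.70, -0.81 and -0.70 in the controls and -0.79, -0.82 and -0.82 after treatment, a difference of -0.08 (SE 0.07). Plk1, polo-like kinase 1, read -0.55, -0.43 and -0.30 against -0.53, -0.57 and -0.57, a difference of -0.12 (SE 0.09). Bub1, of the spindle checkpoint, read -1.94, -1.53 and -1.63 against -1.72, -1.94 and -1.92, a difference of -0.16 (SE 0.13). The treated animals were tight for Aurka and Plk1. A second probe above background turned the sign of Aurka (0.01) and Plk1 (0.01). That of Bub1 gave -0.23, and Bub1 turned to 0.08 with its probes averaged.

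The anaphase-promoting complex and its partners split. Ube2c, the ubiquitin-conjugating enzyme of that complex, read -2.10, -1.97 and -1.80 in the controls and -2.17, -2.34 and -2.09 in treated animals. Only control replicate 1 overlapped the treated range and the difference of -0.24 (SE 0.11, 95% interval -0.51 to 0.03) was the lowest of the mitotic members. Cdc20, the activator of the complex, read -0.54, -0.57 and -0.29 against -0.29, -0.31 and -0.33, where 2 controls lay below all treated animals and control replicate 3 among them. Its difference was 0.15 (SE 0.09).

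Birc5, survivin, a partner of the aurora B kinase, had the highest difference of the mitotic members. It read -1.04, -1.06 and -0.73 in the controls and -0.63, -0.93 and -0.71 in treated animals, a difference of 0.19 (SE 0.13, 95% interval -0.12 to 0.50). The groups overlapped through control replicate 3.

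Motors and spindle proteins included the widest spread of the set. Tpx2, which activates aurora A on the spindle, read -3.37, -3.49 and -2.20 in the controls and -2.98, -2.97 and -3.06 in treated animals. Control replicate 3 stood far above the other 5 animals, which gave the widest interval, -0.82 to 0.85, around a difference of 0.01. In folds the interval runs from 0.566 to 1.80, so it does not exclude a change of Tpx2 somewhat above 1.5-fold in either direction.

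The motor Kif11, which pushes spindle poles apart, read 2.30, 2.81 and 2.40 in the controls and 2.37, 2.36 and 2.25 in treated animals. Its difference of -0.17 (SE 0.15) rests on control replicate 2, without which it was -0.02. A second Kif11 probe above background on all 6 arrays, with a control mean of -0.42, gave -0.06. Kif20a, a motor of cytokinesis, read -1.03, -1.10 and -0.86 against -0.92, -1.11 and -0.71, a difference of 0.08 (SE 0.13). Prc1, which bundles microtubules of the midzone, read -1.64, -1.77 and -1.39 against -1.63, -1.55 and -1.44, a difference of 0.06 (SE 0.12). None of the 3 separated the groups. Nusap1, which binds spindle microtubules, read -1.52, -1.58 and -1.21 against -1.57, -1.61 and -1.45, a difference of -0.11 (SE 0.12), with control replicate 3 highest. Cenpf, a kinetochore protein, read -4.27, -4.47 and -4.40 against -4.64, -4.29 and -4.31, a difference of -0.03 (SE 0.12).

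Within a group, the mitotic genes ranked the animals alike. Control replicate 3 was the highest of the 3 controls for 13 of 17 tested mitotic members (76.5%), against 29.1% of the 10996 named genes above background and present on all 6 arrays. Among treated animals, dibromoethane replicate 2 was the lowest for 11 of 17 (64.7%), against 28.9% of all named genes. In 28 other mitotic genes of a second list, control replicate 3 was highest for 21 of 28 (75.0%) and dibromoethane replicate 2 lowest for 14 of 28 (50%). The lowest control was most often replicate 2 among the members (11 of 17) and replicate 1 among the other genes (14 of 28). Among the replication members, control replicate 3 was the highest control for 6 of 9 (66.7%), and dibromoethane replicate 2 was the highest treated animal for 6 of 9 (66.7%, against 43.3% of all named genes). Control replicate 3 was also scanned on the other day, with slide 2. The treated animal of that slide, dibromoethane replicate 1, was the highest of its group for 8 of 17 mitotic members (47.1%, against 25.9% of all named genes). Dibromoethane replicate 3, alone on slide 3, was the highest for 7 of 17 (41.2%, against 30.8%). Its median deviation from the group mean was 0.05, beside 0.02 for dibromoethane replicate 1 and 0.14 for control replicate 3. The arrays of slide 1 all lay below 0: control replicates 1 (-0.08) and 2 (-0.09) and dibromoethane replicate 2 (-0.07). The arrays below the group mean are thus those of slide 1, so animal and slide cannot be told apart in this ranking. Genes of one animal are not independent of each other, so these shares are a description of 6 arrays, and the part of the slide in them was not tested.

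**Figure D5:**
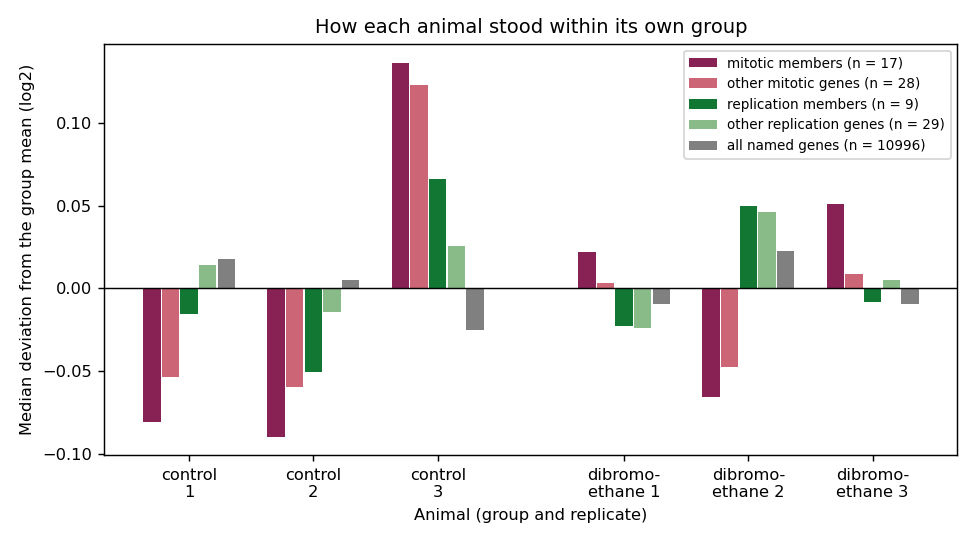
Median deviation of a gene list from its own group mean (log2, vertical axis) in each of the 6 animals, for mitotic and replication members, the other mitotic and replication genes, and all named genes above background on all arrays. Control replicate 3 stands 0.14 above its group mean for the mitotic members, while the median of all named genes deviates by at most 0.02 in any animal.

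The wider cell cycle list gave no further call. Of 114 other cell cycle genes 101 were matched and 83 tested. The limma fit called 0 of 83 at an adjusted p under 0.05, and 7 of 83 (4 higher, 3 lower) passed an unadjusted threshold of 0.05, beside 4.53% and 6.62% of all features. The groups did not overlap for 9 higher and 6 lower genes of the 83, beside 7.38% and 12.1% of all features.

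Among 18 other regulators of the G1 to S step, 6 were higher without overlap and 2 lower (7.38% and 12.1% of all features), a list in which the 2 genes with the smallest p differed in opposite directions. Myc, the growth-promoting transcription factor, read -0.57, -0.59 and -0.66 in the controls and -0.95, -1.08 and -0.77 in treated animals, with every treated animal below every control and a difference of -0.33 (SE 0.10, limma adjusted p of 0.362). Ccnd3, cyclin D3, read 0.73, 0.70 and 0.69 against 1.00, 0.83 and 0.97, with every treated animal above every control and a difference of 0.23 (SE 0.07, limma adjusted p of 0.378).

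The remaining D-type cyclin and its kinases were named after their values were seen. Ccnd2, cyclin D2, read -0.74, -0.68 and -0.63 in the controls and -0.47, -0.42 and -0.56 in treated animals, a difference of 0.20 (SE 0.07). Of the kinase partners, Cdk4 had a difference of 0.18 (SE 0.09). Cdk6 went the other way, with -0.06 (SE 0.15) and groups that overlapped. All 3 D-type cyclins thus read higher in every treated animal than in any control, and none passed the adjusted threshold. The other regulators without overlap were Rb1 (0.12), E2f6 (0.23), Tfdp1 (0.17) and, on the lower side, Cdc25a (-0.11). With the 2 probes of each gene averaged, the differences were 0.03 for Rb1, 0.18 for E2f6, 0.15 for Tfdp1 and -0.06 for Cdc25a.

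The inhibitors of cyclin-dependent kinases did not differ beyond the spread between animals. Of 7 such genes 5 were tested, with 0 at an unadjusted p under 0.05 in the limma fit and no separation of the groups. Cdkn1a, p21, the target of p53 that stops the cycle after DNA damage, read 4.89, 5.0 and 5.22 in the controls and 4.97, 4.67 and 5.13 in treated animals, a difference of -0.11 (SE 0.15, 95% interval -0.47 to 0.25). Cdkn1b, p27, gave -0.17 (SE 0.09) and Cdkn1c, p57, gave -0.23 (SE 0.17). Cdkn2c and Cdkn2d gave -0.01 (SE 0.10) and -0.09 (SE 0.09), and the probes of Cdkn2a and Cdkn2b were too dim to test.

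Among 30 other replication genes tested, the smallest p belonged to Gins1, of the active helicase, with a difference of 0.26 (SE 0.09, limma adjusted p of 0.393). Next was Orc2, of the origin recognition complex, with -0.23 (SE 0.08, limma adjusted p of 0.401) and the opposite sign, 0.15, at its second probe. Among 30 other mitotic genes tested the first was the kinetochore gene Spc25, with -0.27 (SE 0.10, limma adjusted p of 0.421) and -0.24 at its second probe. Ect2, which starts the contractile ring, followed with 0.23 (SE 0.10, limma adjusted p of 0.448).

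Markers of cell types that the cortex holds, or that could come with it, differed between the groups in some lists. The summed level of 10 proximal tubule markers was 1729 to 1879 times the 75th percentile in controls and 1589 to 1638 in treated animals, without overlap, and 5 of 10 were lower at an unadjusted p under 0.05 in limma, which 6.62% of all features were. The sum of 5 blood cell markers was 185 to 215 in controls and 132 to 158 in treated animals, and is mostly the level of Hbb. Of these markers, 2 of 4 tested were lower at that unadjusted threshold, and Ahsp had a difference of 0.09. The sum of 12 lymphocyte markers was 2.65 to 3.20 in controls and 2.31 to 2.78 in treated animals, with 3 of 10 tested lower and 1 higher, and Cd3e above background on 4 arrays only. The sum of 10 macrophage markers, 85.9 to 96.3 against 87.4 to 94.3, overlapped and is mostly the level of Lyz2. Within that list, 3 of 9 tested markers were lower without overlap (12.1% of all features) and at an unadjusted p under 0.05 in limma (6.62%). These were the complement genes C1qa (-0.54), C1qb (-0.48) and C1qc (-0.41). Of the 10 matched macrophage markers, 6 had a difference below 0 and 4 above, among them Itgam (0.73) and Mrc1 (0.29).

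Transcripts of liver secretory proteins had the largest median difference of the marker lists. All 14 had a positive difference, with a median of 1.54, and 5 of 14 were higher at an unadjusted p under 0.05 in limma (4.53% of all features), 4 of 14 without overlap. These 4 were Ttr (3.08), Fgg (2.52), Apoa2 (2.01) and Apoa1 (1.60), and none passed the adjusted threshold. Their summed level was 14.2 to 29.4 in controls and 27.8 to 70.7 in treated animals, highest in dibromoethane replicate 1.

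Sums of 7 endothelial markers (34.3 to 37.6 against 36.3 to 38.8) and of 4 thick ascending limb markers (316 to 342 against 137 to 352) overlapped between the groups. Sums of distal tubule, podocyte and inner medulla markers also overlapped, and that of 4 perirenal fat markers was 1.34 to 1.57 in controls and 1.01 to 1.32 in treated animals. The part of all these cell types and transcripts in the levels of Rgcc, Ccnd1 and the mitotic genes was not tested.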

How the data were processed

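Levels were read from the deposited Agilent Feature Extraction output of 6 1-colour arrays (array design 045522, header version 10.7.1.1; the submitters' processing notes give 10.7). Per the file headers, the processed signal is a background-corrected intensity on a linear scale, and the files also give flags for spots well above background and for outliers (other, yes or no). The deposited series table holds processed signal as a ratio to the array's 75th percentile (r = 1.0 with the scanner values on the log2 scale), with medians of 0.101 to 0.1116, and served as an alternative.

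Control spots (1439) and 84 ERCC spike-in probes were left out, outlier spots (1 to 11 per array) were set missing, and no spot analysed was saturated. Values were taken as log2 and set relative to the 75th percentile of each array. Accessions, without versions, were matched to the RefSeq table of build GRCr8 for names only, since the array grid was built on rn4. Of the 61453 probes 28206 (45.9%) had 1 gene symbol. A probe with no symbol stood for itself.

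The comparison was fitted with lmFit and eBayes of limma 3.58.1 in R 4.3.3 over all 28961 tested features, two-sided, with no covariate. Precision is limited by 3 arrays per group. Alternatives were quantile normalization, normexp (offset 50), other filters and probe rules, slide as a block, a replicate block, trend and robust options, the deposited table and leaving out each array. Normexp used the median signals, because the files hold no mean signal column. The script that fits the model was tested on simulated data.

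The members, the other gene lists and the markers were chosen with earlier results of these data known. All tested members are named. Of each other cell cycle list, called genes or else the 2 with the smallest p are named, and every tested inhibitor of cyclin-dependent kinases. Replicate numbers come from the labels, which do not say that a number pairs animals.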

Additional observations from a re-analysis of the deposited data

How the results depend on the processing

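Across the alternatives, Ccnd1, Ccne1, Rgcc and Mcm6 kept their direction in 76 of 76 values. The groups of these genes did not overlap, so values with an animal left out or within a slide could not change sign. Other filters, the replicate block and the trend and robust options leave the difference itself unchanged. The count is therefore no test of their direction. Of the 25 other tested members, 16 had the other sign in at least 1 alternative, counting values within slides, in 46 of 470 values. The number of features called was 9, and 5 after normexp, 2 with no filter on dim probes, 0 with slide as a fixed block, 17 with trend and robust options, and 1 to 8 with an animal left out. At an unadjusted p under 0.05, 4 members passed in the main limma fit. The count was 7 with slide as a fixed block, 7 with slide as a random block and 2 with trend and robust. It was 1 (without control replicate 2) to 5 with an animal left out. With each probe by itself it was 7 probes, where a gene can count more than once. These counts were not set beside the shares of all features under the same alternatives. Of the members called, 0 became 1 (Rgcc) with trend and robust, and 0 other cell cycle genes were called under any alternative. The cause of these shifts was not tested. The fixed blocks also leave fewer residual degrees of freedom (2 in place of 4), and the part of this was not tested either. The replicate block called 0 features and left both medians as they were (0.0003 and -0.12). Control and treated animals of one number deviated together at r = -0.19, 0.26 and 0.16, and those of different numbers at r between -0.32 and 0.20. The animals with r = 0.26 also share a slide, so number and slide cannot be told apart there. These values do not decide whether the numbers pair the animals, which the labels do not state.

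The median difference of the replication members ran from -0.04 to 0.07 and that of the mitotic members from -0.16 to -0.06 with an animal left out. With only the tested members, an alternative chosen after seeing the data, the medians were -0.03 and -0.11.

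Values with the other sign, none of them called, were as follows. With slide as a fixed block they were -0.068 for Ccnb2, -0.076 for Tpx2, -0.017 for Prc1 and -0.051 for Kif20a. With slide as a random block it was -0.037 for Tpx2. After normexp they were 0.020 for Mcm7, 0.012 for Pcna, -0.12 for Tpx2 and 0.053 for Cenpf. After quantile normalization it was -0.036 for Tpx2. With the probes of a gene averaged they were 0.060 for Mcm2, 0.036 for Mcm4, 0.077 for Bub1, -0.10 for Prc1 and 0.042 for Cenpf. Single other probes gave 0.047 and 0.19 for Mcm2, 0.013 for Aurka, 0.0073 for Plk1 and -0.27 for Prc1. With each animal left out in turn, the difference ran from -0.11 to 0.041 for Mcm2, from -0.077 to 0.0066 for Mcm4, from -0.23 to 0.090 for Rrm2, from -0.086 to 0.092 for Tyms and from -0.046 to 0.13 for Ccnb2. For the others with a change of sign it ran from -0.22 to 0.42 for Tpx2, from -0.18 to 0.0008 for Nusap1, from -0.029 to 0.17 for Prc1, from -0.018 to 0.18 for Kif20a and from -0.096 to 0.079 for Cenpf. On slide 1 alone the sign turned for Mcm2 (0.027), Mcm4 (0.037), Ccnb2 (-0.025), Kif20a (-0.043) and Cenpf (0.079), and on slide 2 alone for Mcm3 (-0.19), Tyms (-0.19), Ccnb2 (-0.13), Tpx2 (-0.79), Prc1 (-0.25) and Kif20a (-0.060). The dim probes of Cdc6, Aurkb and Hmmr were below background on 3 or more of the 6 arrays and allow no statement.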

Other observations

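Among the 112 cell cycle genes tested, 3 had a spread within the groups far above the median SD of 0.13, and they were named after their values were seen. Incenp, the scaffold of the chromosomal passenger complex, has 1 probe. It read -1.14, 1.04 and -1.09 in the controls and -1.23, -1.0 and 0.81 in treated animals, so 1 animal of each group stood far above the other 4. Prim2, the large subunit of primase, read 1.14, 1.07 and -0.33 in the controls and -0.27, 0.86 and 0.73 in treated animals. The 2 low values are those of control replicate 3 and dibromoethane replicate 1, the arrays of slide 2. The second Prim2 probe placed the same animals lowest, with -2.50, -2.50 and -3.54 against -3.52, -2.71 and -2.73.

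Kifc1, a minus-end motor of the spindle, read 2.44, 2.83 and 1.87 in the controls and 0.97, 2.18 and 1.77 in treated animals. Its other 2 probes, at -0.48, -0.32 and -1.0 against -2.33, -1.15 and -1.39, and at 0.75, 1.01 and 0.13 against -0.88, 0.41 and 0.04, placed control replicate 2 highest and dibromoethane replicate 1 lowest as the first did. The differences at the 3 probes were -0.74, -1.02 and -0.77, and those of the second probe came without overlap of the groups.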
